A study of Homo sapiens with 6 samples.

Results

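The genes described here belong to the synthesis, binding and breakdown of hyaluronan. They are the synthases HAS1, HAS2 and HAS3, the receptor CD44, the hyaluronidases HYAL1, HYAL2 and HYAL3, and CEMIP and CEMIP2, tied to hyaluronan breakdown. They were chosen by name, 9 genes of the 40488 in the table, and each was found by its Ensembl identifier. Their RNA was measured in SCC90, an established cell line from an HPV-positive oropharyngeal squamous cell carcinoma, in 6 libraries. In 3 libraries (siDNp63) the cells had received an siRNA against ΔNp63, the TP63 isoform that lacks the N-terminal transactivation domain, and in 3 libraries (siCtrl) a scrambled siRNA. RNA was taken 72 h after transfection in both groups. The labels give 10 nM for the ΔNp63 siRNA, and the study's methods give another dose. The model is 1 cell line, 1 siRNA against the target and a transient knockdown, and the labels do not say whether replicates came from separate cultures, so p-values measure the spread between these libraries.

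Hyaluronan is a long unbranched sugar chain that the HAS enzymes build at the plasma membrane from UDP-glucuronic acid and UDP-N-acetylglucosamine and push out of the cell as they build it. CD44 is the main cell surface receptor for it and is spliced into a short standard form and longer variant forms, which epithelial cells carry in abundance. The chain is cut by HYAL2 at the cell surface and by HYAL1 in lysosomes, and its fragments signal differently from the long chain. CEMIP and the membrane protein CEMIP2 have been tied to its breakdown in other ways. In stratified epithelium ΔNp63 is the transcription factor of basal cells, and HAS3 and CD44 have been tied to it in head and neck carcinoma, which is the question the comparison of the 2 groups addresses.

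Total expected counts were between 35716277 and 52598831 per library. TP63, the targeted gene, was at 42319, 44204 and 43700 normalized counts in siCtrl and at 15520, 14474 and 15414 in siDNp63 (log2 fold change -1.52, SE 0.040, edgeR adjusted p = 7.59e-07). These are reads of the whole gene, so they check the knockdown but not the isoform. All 6 squamous epithelium markers reached 1 TPM (the deposited transcript abundance, a level per length) in some library, but KRT14 was only at 0.374 to 1.59 TPM and KRT5 at 4.12 to 8.24 TPM. The summed epithelial level was 3995 to 4046 TPM in siCtrl and 4911 to 5246 in siDNp63. Most of it was KRT6A, at 3038 to 3123 TPM in siCtrl and 3565 to 3814 in siDNp63. KRT14, CDH1, EPCAM and DSG3 were also higher in siDNp63 without overlap. KRT5 was not, at 6.10 to 8.24 TPM in siCtrl and 4.12 to 7.33 in siDNp63. The leukocyte marker PTPRC, the endothelial marker CDH5 and 4 of 6 fibroblast markers (COL1A2, COL3A1, PDGFRB and LUM) stayed below 1 TPM in every library. The 4 leukocyte markers summed to 12.7 to 15.0 TPM in siCtrl and 10.5 to 11.1 in siDNp63, and the 6 fibroblast markers to 7.47 to 9.54 and 4.62 to 8.11. The 4 endothelial markers summed to 2.49 to 3.00 TPM in siCtrl and 11.1 to 13.5 in siDNp63, mostly KDR and PECAM1. Replicate 1 of siDNp63 stood apart from the other libraries of its group on the second principal component (-39.1, against 25.6 and 24.8), so values that rest on it are given also without it.

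After ΔNp63 knockdown CD44, CEMIP and CEMIP2 rose and HYAL1 fell. HAS3, the only synthase with more than a few reads, had a difference of -6.54%, short of the threshold. HYAL2 and HYAL3 did not pass the test either, and HAS1 and HAS2 were too low to be tested. So of the 9 genes 7 passed the filter on low counts, and of these 3 were higher, 1 was lower and 3 were not called at an adjusted p under 0.05. Of all 17257 genes tested 18.4% were called higher and 15.2% lower. These shares move with the scaling, since 54.7% of calls were higher with TMM factors, 44.4% with upper quartile factors, 36.1% with library size alone and 42.3% on TPM. No hyaluronan gene passed a log2 fold change of 1 as well, which 2.35% of all genes did upward and 1.71% downward. Ranges of normalized counts were separate between the groups in 6 of the 7, against 49.4% of all genes. The median log2 fold change of the 7 was 0.24 and that of all genes tested -0.02, or -0.11 with library size alone.

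**Figure D1:**
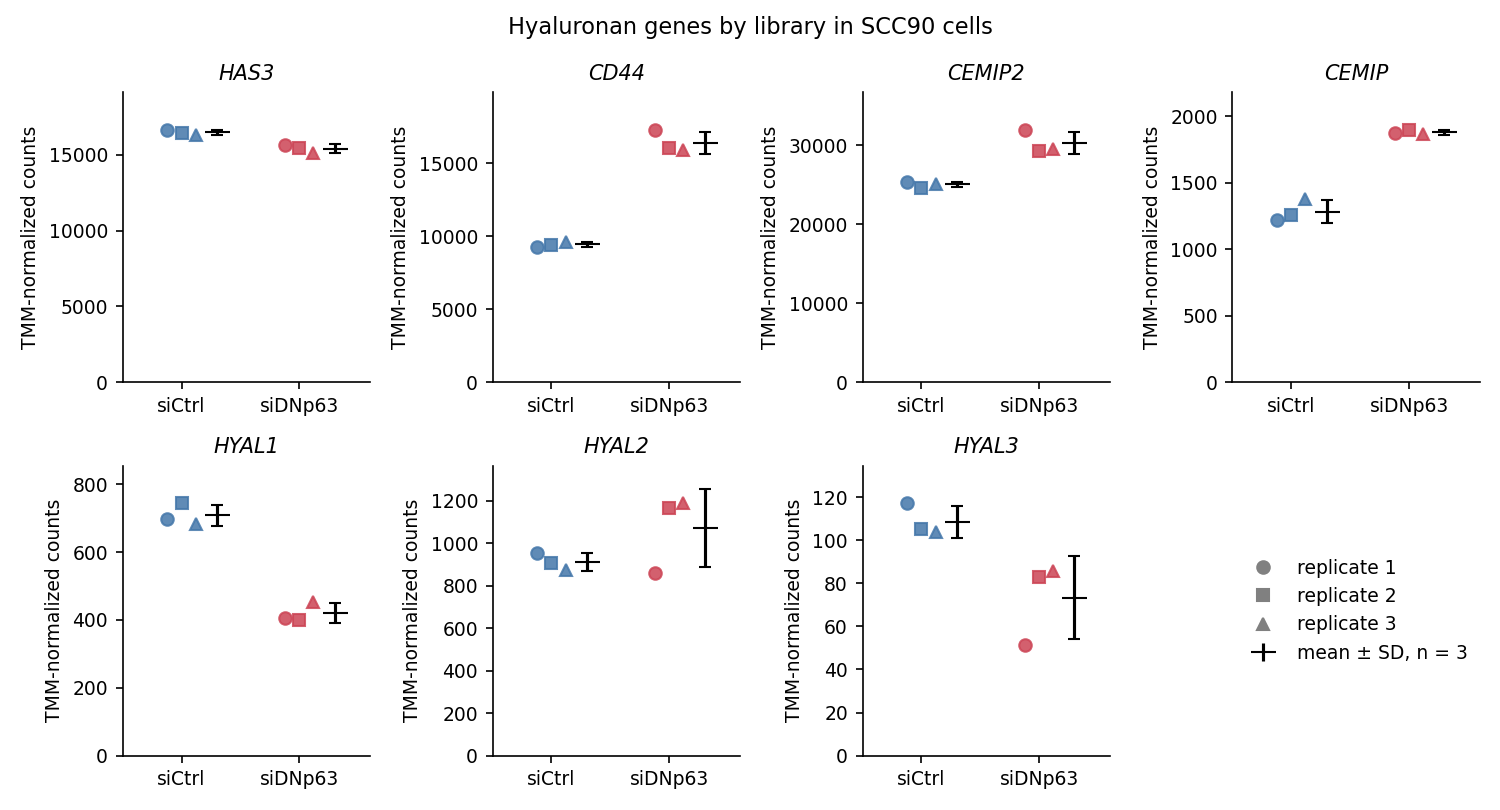
TMM-normalized counts (y axis, from 0) of the 7 hyaluronan genes tested, by group, with 1 point per library, shaped by replicate number, and the mean ± SD of n = 3 beside them. The siDNp63 points lie above all siCtrl points for CD44, CEMIP2 and CEMIP and below them for HYAL1, HYAL3 and, by a small margin, HAS3, while for HYAL2 replicate 1 of siDNp63 lies below the lowest siCtrl point.

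The promoter sequences of the 4 genes called and of HAS3 are shown because the siRNA targeted a transcription factor. They run from 250 bases before to 50 bases after the start of the RefSeq transcript on GRCh38.p14, 5′ to 3′ on the gene's strand. Capitals mark GGGCGG or its complement CCGCCC (the GC box bound by Sp1-type factors) and TATAAA.
HAS3 (chr16:69107290-69107589, plus strand): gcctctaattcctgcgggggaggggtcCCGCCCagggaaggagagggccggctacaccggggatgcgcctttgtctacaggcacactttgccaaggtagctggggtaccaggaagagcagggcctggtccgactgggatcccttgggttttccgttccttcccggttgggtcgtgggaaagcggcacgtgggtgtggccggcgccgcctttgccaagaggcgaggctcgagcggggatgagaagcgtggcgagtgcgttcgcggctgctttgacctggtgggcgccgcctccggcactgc
CD44 (chr11:35138921-35139220, plus strand): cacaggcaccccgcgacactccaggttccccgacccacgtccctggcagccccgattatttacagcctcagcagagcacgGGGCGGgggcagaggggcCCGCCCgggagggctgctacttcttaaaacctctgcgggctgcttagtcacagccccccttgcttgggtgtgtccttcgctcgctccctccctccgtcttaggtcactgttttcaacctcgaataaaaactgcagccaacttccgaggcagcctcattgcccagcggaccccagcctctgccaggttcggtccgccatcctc
CEMIP (chr15:80779120-80779419, plus strand): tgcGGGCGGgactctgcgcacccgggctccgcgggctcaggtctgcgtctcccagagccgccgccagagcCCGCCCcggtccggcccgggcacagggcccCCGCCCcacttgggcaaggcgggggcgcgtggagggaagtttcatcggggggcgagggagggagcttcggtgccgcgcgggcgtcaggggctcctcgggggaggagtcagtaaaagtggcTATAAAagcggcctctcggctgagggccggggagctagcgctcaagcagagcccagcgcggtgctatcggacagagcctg
CEMIP2 (chr9:71768464-71768763, minus strand): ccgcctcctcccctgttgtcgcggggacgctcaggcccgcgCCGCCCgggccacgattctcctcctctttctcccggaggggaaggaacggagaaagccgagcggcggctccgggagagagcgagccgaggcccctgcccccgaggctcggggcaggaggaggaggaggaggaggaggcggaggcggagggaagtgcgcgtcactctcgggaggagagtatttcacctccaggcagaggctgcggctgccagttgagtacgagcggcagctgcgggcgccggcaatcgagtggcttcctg
HYAL1 (chr3:50303525-50303824, minus strand): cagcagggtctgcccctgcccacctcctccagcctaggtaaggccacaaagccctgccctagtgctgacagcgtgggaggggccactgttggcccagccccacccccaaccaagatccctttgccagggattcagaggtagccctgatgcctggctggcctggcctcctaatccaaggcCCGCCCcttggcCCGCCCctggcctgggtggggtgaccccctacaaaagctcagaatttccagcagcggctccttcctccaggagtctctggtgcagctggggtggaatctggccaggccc
The windows of HAS3, CD44, CEMIP2 and HYAL1 lie inside the span that GENCODE gives the gene, downstream of its most upstream start. Windows of 7 of the 9 genes were scanned, and HAS2 and HYAL3 were not among them. None of the 7 held the decamer motif of the p53 family or TGANTCA, the AP-1 motif, on either strand. Of 35116 RefSeq promoters of this length 6.63% held the first and 7.71% the second. GC boxes were found in 6 of the 7, 3 in CEMIP, 2 each in CD44 and HYAL1 and 1 each in HAS1, HAS3 and CEMIP2, and 45.0% of all promoters held one or more. The share of G and C was 63.3% (CD44) to 73.0% (CEMIP) in the 7 windows, against a median of 58.7% over all promoters. Whether GC boxes were more frequent than that share gives was not tested. CEMIP alone of the 7 held TATAAA, its first base at -30 from the start, a motif in 11.5% of all promoters. No match says only that these letters are not in these windows.

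HAS3 (ENSG00000103044, chr16:69105653-69118719, plus strand, GRCh38), the synthase known for shorter chains, was at 16639, 16441 and 16330 normalized counts in siCtrl and at 15671, 15425 and 15083 in siDNp63. The groups did not overlap, but the gap was narrow, and the log2 fold change of -0.10 (SE 0.033) missed the threshold with an edgeR adjusted p of 0.0572. It passed under 7 of 17 alternatives, at log2 fold changes from -0.09 to -0.18: DESeq2, limma-voom, upper quartile factors, library size alone, limma on TPM, a minimum of 10 counts in every library, and without siDNp63 replicate 1. It did not pass under the other 10, with RLE factors (adjusted p = 0.0609), no filter (0.0859) and the other left-out libraries among them. These 10 include the stricter adjusted p of 0.005 and the log2 fold change over 1. Both reuse the main fit, so a gene not called there could not pass them. All 17 gave a negative value, which under those settings is the main value itself. Its span overlaps CHTF8 and DERPC.

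HAS1, whose product makes hyaluronan slowly, had 0, 3 and 0 expected counts in siCtrl and 0, 1 and 0 in siDNp63, at or under the floor of 3 counts per group. HAS2, the enzyme behind long chains in fibroblasts, had 1.00, 2.02 and 0 expected counts in siCtrl and 1.00, 6.05 and 4.10 in siDNp63. Per total count this was 3.46 times as many in siDNp63, with an exact 95% interval of 0.914 to 19.3 for counting error only, so no difference could be detected at this depth. Fitted without a filter, HAS2 had a log2 fold change of 1.72 (SE 1.02, edgeR adjusted p = 0.331). Both stayed below 0.1 TPM. HAS3 made up 99.9% to 100% of the synthase TPM in every library (99.98% ± 0.029 in siCtrl and 99.96% ± 0.038 in siDNp63, SD, n = 3, exact two-sided permutation p = 0.5, with 0.1 the smallest p that 3 against 3 allows).

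CD44 (ENSG00000026508, chr11:35138882-35232402, plus strand) was at 9268, 9424 and 9623 normalized counts in siCtrl. In siDNp63 it was at 17296, 16053 and 15885, so the lowest knockdown library lay far above the highest control. It rose by 73.9% (95% interval 62.0% to 86.6%, log2 fold change 0.80, SE 0.044, edgeR adjusted p = 1.07e-05). CD44 was the most abundant of the 9 genes per length in both groups, 266 TPM ± 4.77 and then 462 ± 25.9 (SD, n = 3). By mean normalized counts in siCtrl it was below CEMIP2 and HAS3 (9438, against 25049 and 16470). Its rank per length rests on the estimated mean length of its transcripts. This was 1434 bases in siCtrl, against 4187 for HAS3 and 4500 for CEMIP2. Without siDNp63 replicate 1 the log2 fold change of CD44 was 0.76. In RNA of whole cultures more cells with CD44 and more CD44 RNA per cell cannot be told apart, here and for every gene that follows. The antisense RNA CD44-AS1 overlaps it and has no row in the table used here. By the study's methods kallisto was run with its defaults, which take no account of strand, so reads of the pair cannot be told apart.

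CEMIP (ENSG00000103888, chr15:80779343-80951776, plus strand), a secreted or surface protein needed for hyaluronan breakdown in skin fibroblasts, was at 1218, 1256 and 1380 normalized counts in siCtrl and at 1876, 1900 and 1867 in siDNp63. The knockdown libraries lay close together and all above the controls. The rise was 46.5% (95% interval 33.9% to 60.3%, log2 fold change 0.55, SE 0.056, edgeR adjusted p = 2.28e-04). CEMIP2 (ENSG00000135048, chr9:71683366-71816690, minus strand), its membrane-bound relative, had the most reads of the set, 25398, 24652 and 25096 in siCtrl and 31972, 29353 and 29599 in siDNp63. Its groups were apart too, by a smaller margin, a rise of 21.0% (95% interval 13.1% to 29.4%, log2 fold change 0.27, SE 0.042, edgeR adjusted p = 0.00169). The span of CEMIP overlaps MESD and MIR549A among other genes, and that of CEMIP2 overlaps a gene without a symbol. What these overlaps do to the reads was not tested.

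**Figure D2:**
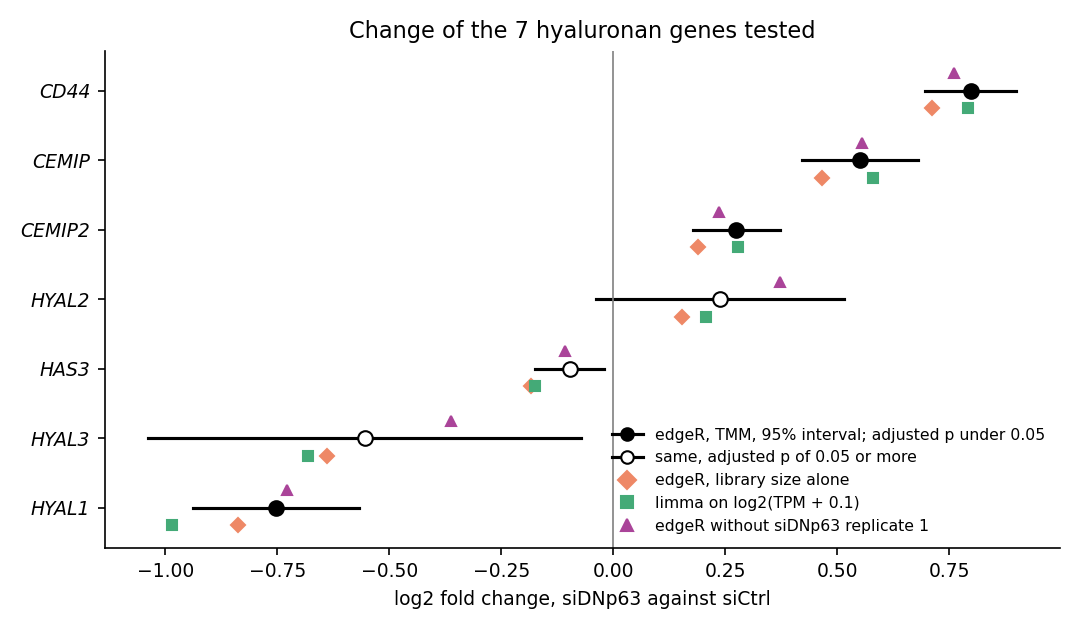
Log2 fold change of siDNp63 against siCtrl (x axis) for the 7 genes tested: circles are edgeR values with their 95% interval, filled where the adjusted p is under 0.05, and diamonds, squares and triangles are the same gene under library size alone, under limma on log2(TPM + 0.1) and without siDNp63 replicate 1. No marker of any gene changes sign, and HYAL2 and HYAL3 have the widest intervals.

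HYAL1 (ENSG00000114378, chr3:50299890-50312381, minus strand), the lysosomal hyaluronidase, was the only gene of the set called lower here, while HAS3 joined it under the 7 alternatives named above. It was at 698, 744 and 683 normalized counts in siCtrl and at 406, 401 and 454 in siDNp63, with a wide gap between the groups. The change was -40.7% (95% interval -47.8% to -32.5%, log2 fold change -0.75, SE 0.080, edgeR adjusted p = 2.86e-04).

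HYAL2 (ENSG00000068001, chr3:50317790-50322782, minus strand), the surface-anchored hyaluronidase, was at 954, 907 and 873 in siCtrl and at 861, 1169 and 1188 in siDNp63. The groups overlapped through siDNp63 replicate 1, and the log2 fold change was 0.24 (SE 0.119, edgeR adjusted p = 0.167), or 0.37 (adjusted p = 0.00155) without that library. HYAL3 (ENSG00000186792, chr3:50292831-50299405, minus strand), a hyaluronidase homologue whose activity is uncertain, was at 117, 105 and 104 in siCtrl and at 51.2, 83.0 and 85.8 in siDNp63. The groups did not overlap, but the log2 fold change of -0.56 (SE 0.208, edgeR adjusted p = 0.0763) did not pass, nor did the -0.36 without siDNp63 replicate 1. HYAL3 shares its span on the same strand with NAA80, an actin acetyltransferase (log2 fold change -0.38, SE 0.271, edgeR adjusted p = 0.331), so reads of the pair are uncertain. IFRD2 overlaps the span of HYAL3 too.

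The 3 hyaluronidase genes lie side by side on chromosome 3, and 13 tested protein-coding genes start within 150 kb of the HYAL1 start. This window was chosen after its values were seen. HYAL1 was the only one of the 13 called, in a fit that called 18.4% of all genes higher and 15.2% lower. The other log2 fold changes ran from -0.56 (HYAL3) to 0.24 (HYAL2), with TUSC2, which overlaps HYAL2, at -0.19 (edgeR adjusted p = 0.0811). The median of all 13, HYAL1 included, was -0.10. In siDNp63 replicate 1, 12 of the 13 genes were lower than the mean of replicates 2 and 3 of the group. How many of all genes were lower there was not counted. The median ratio of the 13 was 0.811, against 1.02 over all genes, whose 5th and 95th percentiles were 0.575 and 1.48. The ratio was 0.731 for HYAL2, 0.606 for HYAL3 and 0.949 for HYAL1, all inside that range. For NAA80 it was 0.52, the lowest of the 13 and below that range. The part of that library in the HYAL2 and HYAL3 values beyond leaving it out was not tested.

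**Figure D3:**
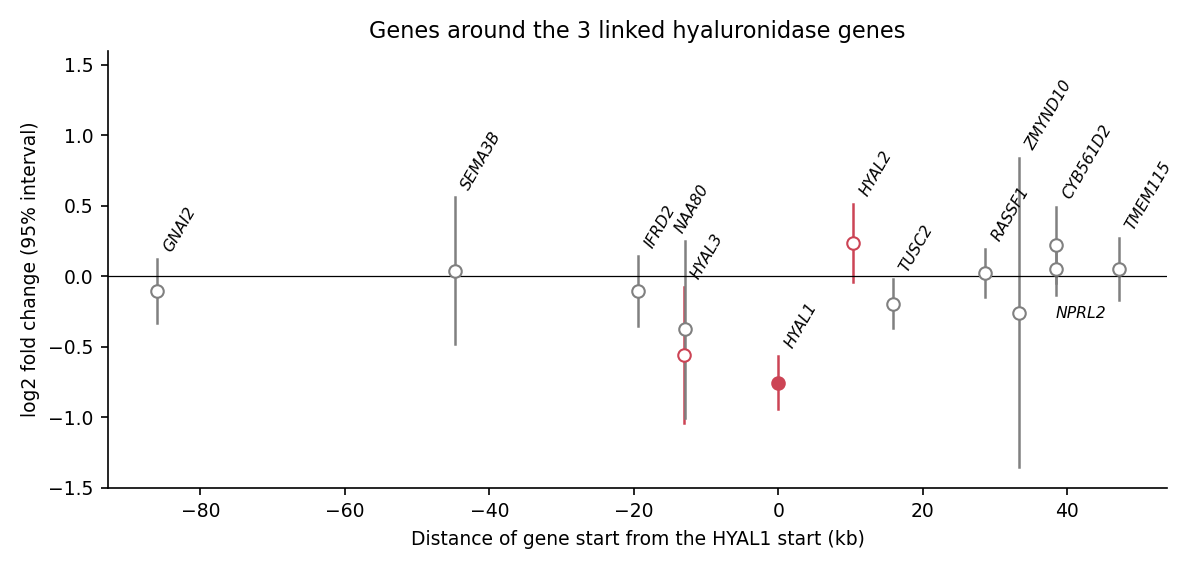
Log2 fold change with its 95% interval (y axis) of the 13 tested protein-coding genes near HYAL1, by the distance of their starts from the HYAL1 start in kb (x axis), with hyaluronidases in red and a filled point for an adjusted p under 0.05. Only HYAL1 is filled. The intervals of HYAL3 and TUSC2 also lie below 0, and those of the remaining genes cross it.

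The genes can be ranked per length on the TPM scale. In siCtrl CD44 (266 TPM) was above CEMIP2 (203) and HAS3 (144), then came HYAL2 (19.0), HYAL1 (13.3), CEMIP (7.42) and HYAL3 (3.01), with HAS1 and HAS2 last. In siDNp63 the order was CD44 (462), CEMIP2 (246.5), HAS3 (128), HYAL2 (22.2), CEMIP (11.0), HYAL1 (6.66) and HYAL3 (1.94). The ranges over libraries of neighbours among these 7 did not overlap in either group, and CEMIP and HYAL1 changed places. The TPM of CEMIP relative to HYAL1 was 0.443, 0.589 and 0.654 in siCtrl and 1.69, 1.71 and 1.58 in siDNp63. The ratio of receptor to synthase, CD44 to HAS3, was 1.78, 1.87 and 1.91 in siCtrl and 3.79, 3.53 and 3.53 in siDNp63. CEMIP2 relative to HAS3 went from 1.41 ± 0.056 to 1.93 ± 0.083, and CEMIP2 relative to CD44 from 0.763 ± 0.034 to 0.534 ± 0.014 (SD, n = 3). Each of these 4 ratios gave an exact two-sided permutation p of 0.1, the smallest possible here. For CD44 to HAS3, CEMIP2 to HAS3 and CEMIP to HYAL1 the genes moved in opposite directions, each without overlap in TPM. That p was therefore fixed by the values of the genes themselves and adds nothing to them. CD44 relative to CEMIP, 36.6 ± 5.91 and 42.0 ± 3.37, gave an exact permutation p of 0.3.

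The mean length of a gene's transcripts, weighted by their abundance, can be read from the 2 deposited values, since an expected count divided by its TPM follows the length less 199 bases. This was read from genes with 1 annotated transcript, of which 66.4% to 67.6% per library lay on that line and the rest did not, and the reason was not tested. The lengths in bases rest on that line, while the tested log2 values do not. CD44 is annotated with 38 transcripts of 352 to 5431 bases. Its mean length was 1446, 1422 and 1433 bases in siCtrl and 1361, 1374 and 1389 in siDNp63, shorter by 59 bases with no overlap between the groups. On the log2 scale of effective length this was -0.06 (SE 0.014), with a raw limma p of 0.00892 and an adjusted p of 0.458, so it did not pass across 17097 genes, where 1209 had a raw p under 0.05 and 0.00585% were called. CEMIP2 was at 4504, 4608 and 4387 bases in siCtrl and 4249, 4312 and 4234 in siDNp63 (limma adjusted p = 0.693), also without overlap. HYAL1 was at 1977, 1957 and 2266 bases and then at 2285, 2306 and 2273, so control replicate 3 resembled the knockdown libraries (limma adjusted p = 0.689). Per length HYAL1 had a log2 fold change of -0.98 on log2(TPM + 0.1), beside -0.75 on counts. HAS3 stayed between 4181 and 4192 bases in all 6 libraries. CEMIP was spread from 5246 to 7199 bases within siCtrl, and its length and those of HYAL2 and HYAL3 were not called.

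**Figure D4:**
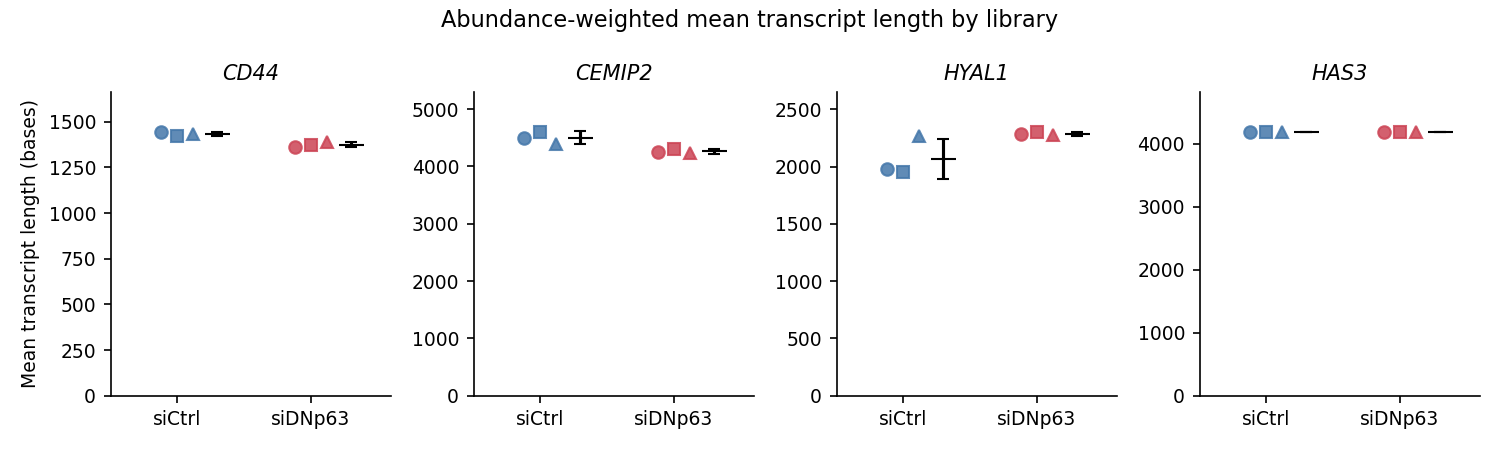
Abundance-weighted mean transcript length in bases (y axis, from 0) of CD44, CEMIP2, HYAL1 and HAS3 by group, 1 point per library shaped by replicate (circle 1, square 2, triangle 3), with the mean ± SD of n = 3. CD44 and CEMIP2 sit slightly lower in siDNp63, HYAL1 replicate 3 of siCtrl sits at the siDNp63 level, and HAS3 is flat.

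Among 15 genes of precursor sugar metabolism, which make, move, use up or drain the precursors, 14 were tested, and 8 fell and 2 rose. Of all genes 15.2% fell and 18.4% rose, and the median log2 fold change of the list was -0.23. SLC35D1, a transporter of UDP-glucuronic acid and UDP-N-acetylgalactosamine, fell by 0.84 on the log2 scale (edgeR adjusted p = 1.19e-05). UGP2, which makes UDP-glucose, fell by 0.82 (adjusted p = 1.92e-05), and UAP1L1, a relative of the UDP-N-acetylglucosamine pyrophosphorylase UAP1, by 0.76 (adjusted p = 1.40e-04). UXS1, which uses up UDP-glucuronic acid, rose by 0.43 (adjusted p = 2.79e-04). UGDH, the enzyme that makes UDP-glucuronic acid, fell by 0.33, while UAP1 itself was at -0.05 and was not called. Of the 14, GFPT1, the entry enzyme of the hexosamine pathway, was the other to rise (0.30).

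Of 25 other receptors and binding proteins only 8 were expressed enough to test. VCAN, the hyaluronan-binding proteoglycan versican, was at a mean of 342 normalized counts in siCtrl and 802 in siDNp63, a rise (log2 fold change 1.23, edgeR adjusted p = 1.57e-05), the only gene of the lists beyond a log2 fold change of 1. The receptors TLR2 (0.51) and TLR4 (0.34), which respond to hyaluronan fragments, rose too, and none of the 8 fell, against 18.4% of all genes higher and 15.2% lower. HMMR, the intracellular and surface receptor RHAMM, was at 0.11 and was not called.

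Of 21 partners, cleavage and splicing factors of CD44, 17 were tested, and 7 rose (41.2%, against 18.4% of all genes) and 3 fell (17.6%, near the 15.2% of all genes), with a median log2 fold change of 0.12. RDX, the ERM protein radixin that ties CD44 to actin, fell by 0.61 on the log2 scale (edgeR adjusted p = 3.13e-05), while EZR, its relative ezrin, rose by 0.23. ESRP1, an epithelial splicing factor that keeps CD44 variant exons in, rose by 0.45 (edgeR adjusted p = 1.20e-04), and ESRP2 rose by 0.37. MMP14, a membrane protease that cuts CD44, fell by 0.41 (edgeR adjusted p = 3.77e-04), and APH1B, a subunit of gamma-secretase, by 0.96 (edgeR adjusted p = 4.68e-04). ADAM17, another sheddase, rose by 0.27, while ADAM10 (0.11) was not called.

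**Figure D5:**
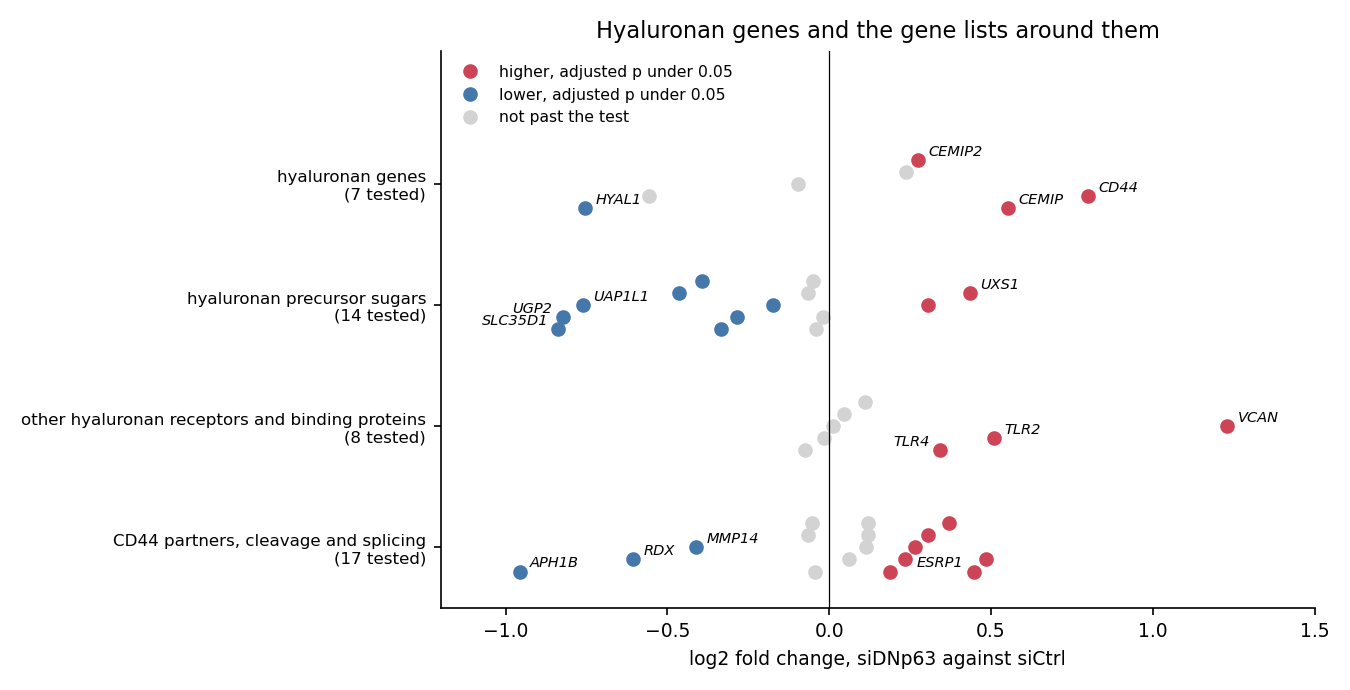
Log2 fold change of each tested gene (x axis) in the hyaluronan set and the 3 lists around it (rows), red for genes higher and blue for genes lower at an edgeR adjusted p under 0.05, grey otherwise, with up to 4 genes of smallest p named per row. Most coloured points of the precursor row are blue, VCAN is alone beyond 1, and the CD44 row has 7 red and 3 blue points.

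Over the 6 libraries 13882 genes with a mean of at least 50 normalized counts were compared with CD44 and HAS3. Genes without a symbol were then left out. The closest to CD44 among the rest were P3H2, SORT1 and FBXO34 (Pearson's r of 0.99988, 0.99975 and 0.99974). For HAS3 they were KDM4C (0.997), HILPDA (0.995) and SFI1 (0.993). These are descriptions of 6 points in 2 groups, where any gene that differs between the groups correlates with any other.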

How the data were processed

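RNA of 6 SCC90 libraries was made with a stranded poly(A) kit and, per the submitters' processing notes, processed with bcl2fastq 2.17.1.14, kallisto 0.46.2 and hg38 (release of the annotation not given in the sources used here). Deposited expected counts are estimates by kallisto that the authors summed per Ensembl gene. Deposited TPM are levels per length made by the authors, and they sum to 1000000 in each library. All 12 value columns were used. Of the 40488 identifiers 35538 matched the name table. Expected counts were rounded, filtered (edgeR 4.0.16 filterByExpr, minimum count 10), scaled by TMM and tested with glmQLFit and glmQLFTest, the group as the only term, with Benjamini-Hochberg adjustment over all 17257 genes. A gene was called at an adjusted p under 0.05. Normalized counts are TMM-scaled. Transcript length was tested with limma 3.58.1 on log2(expected count / TPM), centred on the library median. Exact permutation tests were two-sided. Totals of 35716277 to 52598831 counts leave genes of few counts imprecise, and intervals of 2 groups' sums cover counting error only. Alternatives were DESeq2 1.42.0, limma-voom, RLE, upper quartile and library size scaling, other filters, limma on log2(TPM + 0.1), a stricter adjusted p of 0.005, a log2 fold change over 1, a replicate block and leaving out each library. The scripts were tested on simulated data, where edgeR's false calls ran somewhat above the nominal rate. A further list is not reported here. The members and lists were chosen with earlier results of these data known. The named genes were all members, TP63 and up to 4 called genes of smallest p per list. For CD44 and HAS3 the 3 closest genes with a symbol were also named. Other genes named (UGDH, UAP1, GFPT1, HMMR, ESRP2, EZR, ADAM17, ADAM10, NAA80 and TUSC2) were chosen after their values were seen. Promoters are RefSeq's, on GRCh38.p14, and gene spans are GENCODE's.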

Additional observations from a re-analysis of the deposited data

How the results depend on the processing

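Of 422 alternative values 382 stayed close to the reported one: tested values kept their direction and side of the threshold, gene counts stayed within 1.5 times, and synthase shares moved by less than 1 SD, although within it the group difference changed sign for HAS1 (-0.0133 to 0.0162 percentage points) and HAS3 (-0.0359 to 0.00244). Some of the 382 could not change. The stricter adjusted p and the added fold change reuse the main fit, so genes not called in it stay so under them. HAS3 passed the threshold with DESeq2 (log2 fold change -0.094), limma-voom (-0.10), upper quartile factors (-0.14), library size alone (-0.18), at least 10 counts in every library (-0.11) and limma on log2(TPM + 0.1) (-0.17), so the count of hyaluronan genes lower was 2 under these 6, and it was at -0.109 to -0.0817 when 1 library was left out, where that count was 1 to 2 (2 without siDNp63 replicate 1). The cause was not tested. Under the added requirement of a log2 fold change over 1, CD44 (0.80), CEMIP (0.55), CEMIP2 (0.27) and HYAL1 (-0.75) were no longer called, by construction, the counts higher and lower were 0 and 0, and those over the lists 1 and 0. With library size alone 17 genes over all lists, the one not reported included, were lower, against 11. HYAL2 ran from 0.16 to 0.37 when 1 library was left out and passed without siDNp63 replicate 1. The mean transcript length of HYAL3 reversed without siDNp63 replicate 1 (log2 -0.0758, range -0.0758 to 0.208 over left-out libraries), and that of CEMIP without siCtrl replicate 1 (0.00538, range -0.230 to 0.00538). Same-numbered libraries did not deviate together (correlations -0.01, 0.02 and 0.03), nor did every library correlate best with its own number, so the numbers are not taken as pairs; with the replicate block HAS3 was at -0.10 (adjusted p = 0.129), and 2777 genes were higher and 2175 lower, against 3177 and 2626. No call of a hyaluronan gene changed under the block.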
